A study of Mus musculus with 18 samples.

Results

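Ribosome footprints that carried the chemical mark of newly made RNA were compared, gene by gene, with unmarked footprints of the same library in the mouse macrophage-like cell line RAW264.7. The libraries were the 3 footprint libraries of experiment 1 taken after 60, 90 and 120 min in 200 µM 4-thiouridine (4sU), chosen by their titles, and the unlabelled 0 min footprint library of the same experiment was the background. They are 4 of the 18 libraries of the series, which also holds cytoplasmic input RNA of every lysate, and the input libraries of the same labelled lysates are used near the end. Cells of all groups were untreated apart from 4sU, and were washed and lysed in cycloheximide, which arrests elongating ribosomes. Each labelling time is 1 library, so the spread between the 3 libraries includes the change with time. The labels do not say whether the lysates are separate cultures, so a p-value reflects the spread of these libraries and no more. Of 12151 genes listed in the 4 footprint libraries, 8636 had a mean of at least 50 reads over the labelled libraries and were tested.

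A cell replaces its mRNAs continuously, and 4sU, a uridine analogue, enters only RNA made after it is added. Chemical conversion turns the incorporated 4sU into a base read as cytidine, so that a read with at least 1 T-to-C change counts as new and a read with none as old. Because only stretches of mRNA covered by a ribosome survive the nuclease, the new footprints of nuclear genes sample mRNAs made during labelling, exported and already engaged by ribosomes. Both calls carry errors: many fragments of new mRNA hold no converted position, and 0.298% of reads showed a change in the unlabelled library.

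The footprint libraries held 11771175 to 18678728 reads with label and 23327760 without. Converted reads made up 0.298% of footprints without label, 2.43% at 60 min, 4.00% at 90 min and 5.54% at 120 min (95% Wilson bounds 5.53 and 5.55 at 120 min, counting error only). The 60 min library also stood apart in its mean of 6.87 T positions per read, against 6.42 to 6.56 in the other 3. All 10 macrophage markers examined were listed, at a summed 10000 to 12863 CPM (counts scaled to the library total). Lyz2 alone gave 6661 to 8623 CPM of this sum, whereas Adgre1 had 35.6 to 38.8 CPM and Itgam only 3.23 to 5.36. Of 29 genes that mark other cell types 8 had any read, at a sum of 1.16 to 1.87 CPM, and none of these was tested.

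The first question was which mRNAs are translated from new copies more, and which less, than the footprint pool as a whole. Each value below is the log2 of a gene's converted to unconverted ratio relative to the same ratio in the whole library, with its standard error (SE) and, from edgeR's quasi-likelihood test, its Benjamini-Hochberg adjusted p over all genes. New footprints were enriched for transcription factors and feedback regulators of inflammatory signalling, for all mitochondrially encoded mRNAs and for replication histones. They were poor in enzymes of glycolysis, subunits of oxidative phosphorylation, lysosomal hydrolases, the proteasome and ribosomal proteins. At adjusted p under 0.05, 3014 genes were higher in new footprints (34.9% of those tested) and 2615 were lower (30.3%), and for 5484 of the 5629 called genes all 3 libraries had the same direction. The enrichment reached 2-fold in 2473 genes and 8-fold in 537, whereas a deficit of 2-fold was seen in 1747 genes and of 8-fold in 57. The directions are not measured over like ranges, because no background was subtracted. Without label 0.298% of footprints were converted, against 2.43% at 60 min, so a deficit has less room than an enrichment.

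Across the tested genes the median converted share was 2.06% at 60 min, 4.04% at 90 min and 6.33% at 120 min. The genes spread widely around it: at 120 min the lowest 5% of genes lay under 1.35% and the highest 5% above 40.6%. At least 50% of footprints were converted in 2 genes at 60 min, 27 at 90 min and 147 at 120 min. For these last genes most translation observed after 120 min came from mRNA made since 4sU was added, counting only reads with a visible conversion.

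Among genes averaging 100 reads or more, with under 1% converted reads in the unlabelled library, Txnip had the highest value. Txnip encodes thioredoxin-interacting protein, an arrestin-family regulator of glucose uptake and redox state. It lies on chr3:96557957-96561883 (mm10, plus strand, 8 exons). Its converted share was 45.4% at 60 min, 55.7% at 90 min and 61.8% at 120 min (Wilson bounds 60.2 and 63.3), against 0.395% without label. All 3 labelled libraries stood far above the background, and the relative log2 ratio was 4.92 (SE 0.09, adjusted p = 2.54e-15).

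Tnf, which encodes the inflammatory cytokine tumour necrosis factor, lies on chr17:35199381-35202007 (minus strand, 4 exons). Its footprints were 46.9% converted at 60 min, 51.1% at 90 min and 55.7% at 120 min, against 0.264% without label. Tnf thus was already near its 120 min share at 60 min, and its log2 ratio was 4.72 (SE 0.15, adjusted p = 8.32e-13). Tnf had 379 footprint reads in the unlabelled library, and 516, 791 and 941 in the labelled ones, which held fewer reads in all. Its footprint level thus differed between these libraries, so its new share cannot be read as turnover at a constant level. This difference was not tested. The 120 bases before the annotated start of Tnf and of Txnip are shown because these genes are among the highest of all (RefSeq windows, GRCm38.p6, 5′ to 3′ on the gene's strand). They lie at chr17:35202008-35202127 (minus) and chr3:96557837-96557956 (plus). Capitals mark TATAAA or CCAAT on either strand.
Tnf: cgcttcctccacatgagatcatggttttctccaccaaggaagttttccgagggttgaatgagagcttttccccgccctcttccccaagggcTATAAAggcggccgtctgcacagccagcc
Txnip: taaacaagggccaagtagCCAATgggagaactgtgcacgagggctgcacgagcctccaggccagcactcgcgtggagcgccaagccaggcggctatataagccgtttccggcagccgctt
TATAAA, searched on both strands in the RefSeq windows of 250 bases before to 50 after a gene's start, was found for 7.81% of the 6706 tested genes that had a window. It was found for 9.62% of 395 genes with a log2 ratio of 3 or more and for 7.31% of 1504 genes under -1. Among immediate-early genes with a window it was found in 6 of 20, and among genes of the NF-kB system in 4 of 14. CCAAT was found for 43.3% of tested genes and for 48.1% of those with a log2 ratio of 3 or more. It was found in 11 of 20 immediate-early genes and in 4 of 14 genes of the NF-kB system. These matches only describe the letters in the windows. The 2 motifs can share an end base with one another but no more.

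The other 10 genes of the highest 12 had log2 ratios of 4.60 to 4.78 and shares of 52.9% to 65.1% at 120 min. Hyls1, a centriole and cilium protein, had 47.5%, 43.9% and 65.1% converted reads at 60, 90 and 120 min. Fbxo5, also called Emi1, an inhibitor of the anaphase-promoting complex, had 41.3%, 53.6% and 60.3%. Tiparp, a target of the aryl hydrocarbon receptor that mono-ADP-ribosylates proteins, had 42.7%, 50.6% and 60.0%. Hyls1 overlaps the coding genes Pate2 and Pus3, and reads of overlapping genes may be shared, since the counting is not described in the sources used here.

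Several of the remaining genes act in early responses. Ier3, an immediate-early survival gene, had 49.0%, 46.2% and 57.4% converted reads. Klf10 had 45.2%, 48.5% and 56.1% and Klf6, another Kruppel-like transcription factor, 39.5%, 50.9% and 56.1%. Ier3 and Tnfaip3 were each higher at 60 than at 90 min. Tnfaip3 encodes A20, which ends NF-kB signalling, and had the fewest reads of the 12, with a mean of 135. Its shares were 48.6%, 44.4% and 56.3%, with Wilson bounds of 39.6 and 57.8 at 60 min and 36.6 and 52.6 at 90 min, which overlap. Nfkbid, an inhibitor of nuclear NF-kB, had 42.2%, 50.2% and 57.8%, Zfp36, which destabilises AU-rich mRNAs, had 43.5%, 50.2% and 52.9%, and Cmtr2, an mRNA cap methyltransferase, had 45.7%, 50.4% and 55.8%.

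**Figure D1:**
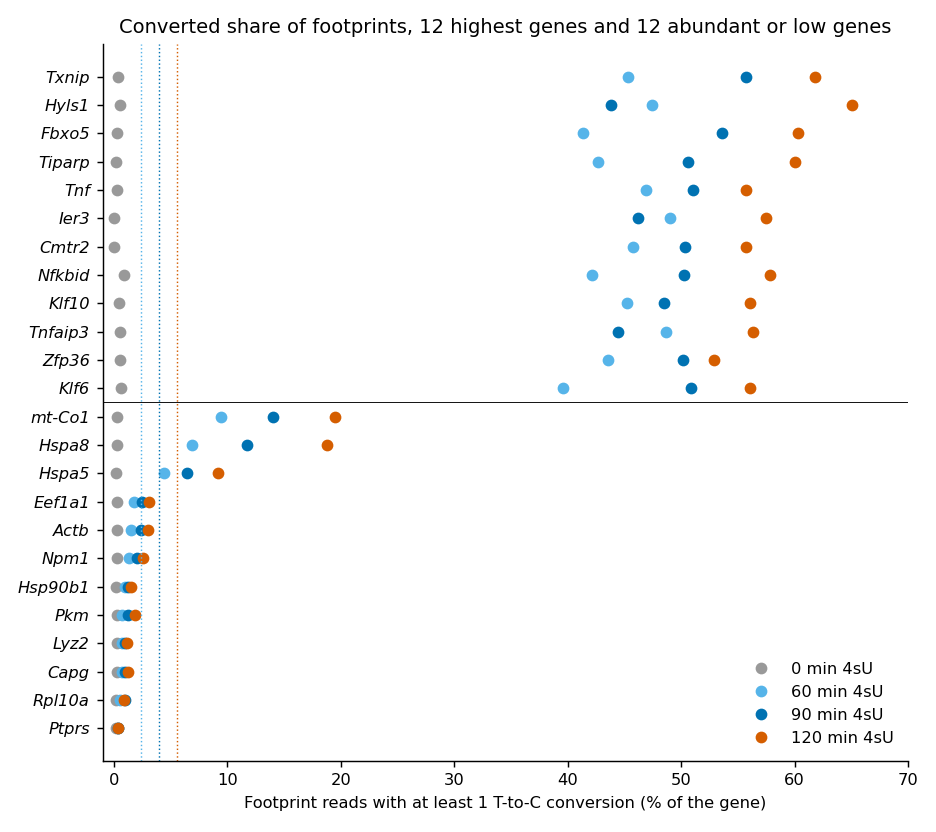
Converted share of footprint reads (percent, x axis) for the 12 highest genes and 12 abundant or low genes in the 0, 60, 90 and 120 min libraries, each point 1 library, with dotted lines at the library-wide shares. The upper genes lie between 39.5% and 65.1% with label and under 1% without it, whereas Lyz2 reaches 1.14% and Ptprs 0.363% at 120 min.

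At the other end, footprints of some genes were hardly marked at all. Itgax, which encodes the integrin CD11c, had 0 converted reads among 172, 214 and 257 footprints, which allows a share of up to 0.467% over the 643 reads. Gamt, the last enzyme of creatine synthesis, had 0 of 122, 105 and 135, which allows up to 0.829% over 362. In all, 12 tested genes had no converted read in the 3 libraries, and 82 had at 120 min a share at or below their own share without label.

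Ptprs, a receptor tyrosine phosphatase, was the deepest of the 12 lowest named genes. Its share was 0.364% at 60 min, 0.362% at 90 min and 0.363% at 120 min, against 0.186% without label. The flat values lay far below the library-wide share, with a log2 ratio of -3.53 (SE 0.30, adjusted p = 6.24e-08). Abca2 and Abca7, both lipid transporters of the ABC family, had 0.361% and 0.289% at 120 min. Rtel1, a helicase of telomere maintenance, had 0.264% and Txnrd2, the mitochondrial thioredoxin reductase, 0.243%. Clybl, a mitochondrial lyase, had 0.385%, Serpinb12, a serine protease inhibitor, 0%, Phykpl 0.654%, Hrsp12 0.373% and Ppm1j, a protein phosphatase, 0.862%. At such shares the counts are near the unlabelled level of 0.298%, so the size of the deficit is limited by background and depth.

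The immediate-early list held 43 regulators that cells induce within minutes of a stimulus, and 27 passed the filter on reads. All 27 were higher (background 34.9%), with a median log2 ratio of 3.75 beside 0.04 over all genes tested. The median share of these genes was 25.8%, 35.8% and 42.5% at 60, 90 and 120 min. Mcl1, a short-lived survival protein of the Bcl2 family, had 16%, 28.1% and 38.5% (log2 3.20, SE 0.11, adjusted p = 1.52e-12). Junb, an AP-1 subunit with 1 exon that overlaps Prdx2, had 25.2%, 33.9% and 36.5% (log2 3.55, SE 0.13, adjusted p = 4.68e-12).

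Of 17 tested genes of the NF-kB system 14 were higher and none lower (background 34.9% and 30.3%), with a median of 2.21. With a mean of at least 200 reads, 7 of 10 were higher, with a median of 1.33. Nfkbia, the inhibitor that NF-kB itself induces, had 42.2%, 48.2% and 51.2% converted footprints (log2 4.50, SE 0.12, adjusted p = 1.24e-13). Of 14 tested inflammatory genes 10 were higher and 1, the mitochondrial superoxide dismutase Sod2, lower, with a median of 2.66. Tlr2, a sensor of bacterial lipoproteins, had 16.5%, 28.4% and 42.9% (log2 3.31, SE 0.12), and Ccl3, a chemokine, had 30.4%, 37.6% and 42.2% (log2 3.87, SE 0.15). Tlr2 differed from Ccl3 and Tnf in that its share at 60 min was far below that at 120 min.

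Genes of mRNA decay were mixed, with 18 of 32 higher and 7 lower (background 34.9% and 30.3%) and a median of 0.97. The AU-rich element binding protein Zfp36l2 had 22.8%, 32.8% and 42.5%, and the antiproliferative factor Btg1 had 14.4%, 27.4% and 47.2%. Among 6 regulators of G-protein signalling Rgs1, Rgs2, Rgs3 and Rgs19 were higher and Rgs10 lower. Rgs2 had 33.3%, 45.1% and 52.1%, Rgs1 had 35.9%, 58.6% and 67.7% with a mean of only 57.0 reads, and Rgs3 had 13.3%, 27.3% and 47.1%.

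Numbered zinc finger genes, selected by their Zfp symbols, were the longest list, and 118 of 314 passed the filter. Of these 104 were higher (background 34.9%) and 3, Zfp106, Zfp326 and Zfp692, lower (background 30.3%), with a median of 2.91. Most zinc finger proteins of this kind are DNA-binding repressors, although the symbols also take in Zfp36. Zfp830, a gene of 1 exon, had 24.0%, 34.7% and 46.6% converted reads and 0% without label. Zfp958 had 36.4%, 48.2% and 57.0%, but also 3.38% without label. In 584 tested genes at least 1% of footprints were converted without label, and 293 of these were among the genes called higher.

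Several lists of stress and growth control held more higher than lower genes, as did all genes tested (34.9% higher, 30.3% lower). Of 16 tested mRNAs on the list of upstream open reading frames, 12 were higher. Among these was the stress transcription factor Atf4, with 15.2%, 23.2% and 33.7%. Ppp1r15b, a phosphatase subunit that reverses the translational stress block, had 15.8%, 33.3% and 44.8%. The only lower gene was Oaz1, an inhibitor of polyamine synthesis whose translation needs a frameshift, with 1.19%, 2.18% and 3.36%. Among p53 targets 8 of 14 were higher and 2, Bax and Trp53 itself, lower. Cdkn1a, the cell-cycle inhibitor p21, had 19.9%, 27.8% and 37.2%, and Mdm2, the ubiquitin ligase of p53, had 15.5%, 27.7% and 36.7%. The gene of p53 itself had 1.27%, 2.59% and 4.38%, and the cell-death effector Bax 1.69%, 2.06% and 4.11%.

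In the cell cycle, 7 of 9 tested G1 cyclins and regulators were higher (background 34.9%) and 1 lower (background 30.3%), the kinase Cdk4. Of 27 mitotic genes 16 were higher, and the 5 lower ones were Bub1, Bub1b, Ccnb2, Kif23 and Top2a. Ccne2, cyclin E2, had 7.84%, 21.5% and 35.3%, and the mitotic kinase Aurka had 7.02%, 15.7% and 26.3%. The mitotic cyclins differed: Ccnb1 had 5.98%, 10.3% and 16.1% (log2 1.52), while its paralogue Ccnb2 had 1.24%, 2.16% and 1.89% (log2 -1.19). Genes of DNA replication differed among themselves, with 8 of 37 higher and 19 lower. The 8 included the licensing factors Cdt1, with 8.17%, 20.0% and 33.2%, and Cdc6, with 8.07%, 15.5% and 24.0%.

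Of 26 splicing regulators 19 were higher and 2, Srrm1 and Srsf5, lower (background 34.9% and 30.3%). In contrast, of 25 hnRNP genes 6 were higher and 19 lower. Clk1, a kinase that phosphorylates SR splicing factors, had 23.1%, 37.1% and 49.8%, and Ccnl1, a cyclin L, had 25.0%, 34.9% and 44.1%. Hnrnpa2b1 had 1.03%, 1.84% and 2.49% (log2 -1.20, SE 0.08) and Hnrnph1 1.02%, 1.60% and 2.24% (log2 -1.34, SE 0.10). The intronless Pcbp1, an RNA-binding protein of the same list, had 5.17%, 10.3% and 15.5%.

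Of 24 tested cholesterol genes 13 were higher and 5 lower (background 34.9% and 30.3%). Insig1, which restrains the pathway, had 17%, 29.2% and 38.3%, with 1.10% without label. The lower genes were the enzymes Fdps, Lss and Pmvk and the regulators Scap and Srebf2, with Srebf2, a transcription factor of the pathway, at 0.673%, 2.34% and 2.75%.

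The endoplasmic reticulum and heat-shock lists each held higher and lower genes (background 34.9% and 30.3%). Of 22 endoplasmic reticulum genes 13 were lower, and the 5 higher ones were Herpud1, Dnajb9, Xbp1, Syvn1 and Hspa5. Herpud1, a stress-induced degradation factor, had 14.1%, 29.4% and 40.3%, and Xbp1, a transcription factor of the unfolded protein response, 10.1%, 21.4% and 33.7%. In contrast, the chaperone Hsp90b1 had 1.01%, 1.24% and 1.52% and the lectin chaperone Canx 0.957%, 1.30% and 1.64%. Of 14 heat-shock genes 8 were lower, and the 5 higher ones were Bag3, Dnajb1, Dnaja1, Dnaja2 and Hspa8. The stress-induced cochaperones Dnajb1 and Bag3 reached 40.4% and 39.1% at 120 min. The 7 tested TRiC chaperonin subunits were all lower (background 30.3%), with a median of -1.05.

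Mitochondrially encoded mRNAs were higher in 13 of 13 cases, with a median log2 ratio of 3.60. They differed by complex: the 7 subunits of complex I ran from 3.60 for mt-Nd1 to 4.38 for mt-Nd2, whereas mt-Co1, mt-Co2 and mt-Co3 of cytochrome oxidase had 2.02, 2.54 and 2.62. The other 3 were mt-Atp6 with 2.36, mt-Atp8 with 2.20 and mt-Cytb of complex III with 2.92. mt-Nd5 had 28.7%, 42.0% and 50.7% converted footprints against 0.328% without label. These reads are rich in T, which gives each more positions at which a conversion can be seen: the median was 8.87 T positions per read in this list and 6.67 over all genes. With the number of T positions in each read taken into account the median of the list was 2.85, and the values were 3.84 for mt-Nd5 and 1.72 for mt-Co1. Fragments of 25 to 35 nt from the monosome fractions were sequenced, and whether those of mitochondrial mRNAs were protected by mitochondrial ribosomes was not tested.

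The first 60 coding bases of 4 genes show this difference in what a read can record (GENCODE M21 transcripts, 5′ to 3′, T in capitals).
mt-Nd5: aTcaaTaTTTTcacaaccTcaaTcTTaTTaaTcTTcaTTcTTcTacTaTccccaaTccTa
Tnf: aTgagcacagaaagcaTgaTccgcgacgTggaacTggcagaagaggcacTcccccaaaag
Ier3: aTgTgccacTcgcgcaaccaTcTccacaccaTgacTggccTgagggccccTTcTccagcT
Lyz2: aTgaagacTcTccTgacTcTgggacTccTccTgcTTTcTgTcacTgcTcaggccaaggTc
These stretches hold 24, 6, 12 and 17 T. Over the whole coding sequence T makes up 28.6% in mt-Nd5, 20.4% in Tnf, 21.3% in Ier3 and 22.5% in Lyz2. The reads held a mean of 8.57, 4.97, 6.36 and 6.74 T positions, so Tnf had the highest relative new share of the 4 with the fewest positions to show it. With T positions taken into account the log2 ratio was 4.94 for Tnf, 4.74 for Ier3 and -2.09 for Lyz2.

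Replication-dependent histones, made in S phase from mRNAs that end in a stem-loop, were higher in 53 of 54 tested cases and lower in none, with a median of 2.05. The exception was Hist1h2bl (log2 0.98, adjusted p = 0.0675). Hist1h2ap had 15.1%, 20.4% and 28.9% converted footprints (log2 2.75, SE 0.08) and Hist1h2bc 12.6%, 18.5% and 27.5% (log2 2.56, SE 0.08). Hist1h4n had 24.6%, 38.7% and 47.1%. Its reads held a mean of 12 T positions, against a list median of 5.48, although T makes up 13.3% of its coding sequence. With T positions taken into account its log2 ratio went from 3.85 to 3.26. It had 2690, 2157 and 1924 footprint reads but 56, 36 and 42 input reads, so its reads may not cover the gene evenly, which was not tested. Histone genes are near-identical copies, and how reads that fit several copies were counted is not given, so values of single genes are uncertain. A separate list of histone variants was mixed, with 3 of 8 higher (H2afx, H3f3b and H1f0) and 3 lower (H2afy, H2afz and H3f3a). The background was 34.9% higher and 30.3% lower. H2afx had 7.17%, 11.8% and 16.4%, and H2afy, macroH2A1, 0.596%, 0.917% and 1.73%. The 2 genes of histone H3.3, which encode the same protein, differed in direction, with a log2 ratio of 1.07 for H3f3b and -1.11 for H3f3a.

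Lists of core metabolism and protein synthesis held more lower than higher genes (background 30.3% lower). The share of lower genes was larger among abundant genes in general. It was 56.8% of all tested genes with 1000 to 10000 mean reads and 82.8% of those above 10000. No list was matched for abundance, so whether a list differs from genes of like abundance was not tested. Of 76 nuclear-encoded subunits of oxidative phosphorylation 68 were lower, with a median of -1.06, opposite in sign to their mitochondrially encoded partners, and 2, Cox7a2l and Uqcrfs1, higher. Atp5c1, a subunit of ATP synthase, had 0.610%, 1.06% and 1.53% (log2 -1.96, SE 0.11), and Uqcrc1 of complex III had 0.807%, 1.21% and 1.56% (log2 -1.77, SE 0.13). Of 18 glycolytic enzymes 15 were lower and 2, Hk2 and the glucose transporter Slc2a1, higher, with a median of -1.21. Pkm, pyruvate kinase, had 0.722%, 1.24% and 1.83% (log2 -1.72, SE 0.05, adjusted p = 1.24e-13). Slc2a1, which brings glucose into the cell, had 5.75%, 10.6% and 15.9%. Hk2, hexokinase 2, had 10.7%, 17.6% and 25.9%, but also 2.33% without label.

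Of 74 ribosomal protein genes 60 were lower, with a median of -0.58, and the 4 higher ones were Rpl7l1, Rplp0, Rps2 and Rpsa. Of 22 other mRNAs with a terminal oligopyrimidine start 19 were lower and 2, Eif4b and Pabpc1, higher. Rpl10a had 0.581%, 0.953% and 0.931% (log2 -2.30, SE 0.11) and Rpl37a 1.06%, 1.70% and 2.19% (log2 -1.30, SE 0.08). Npm1, a ribosome assembly chaperone, had 1.35%, 2.06% and 2.59%, and Ybx1, an mRNA-packaging protein, 0.859%, 1.17% and 1.66%. Many ribosomal protein genes have processed pseudogenes that could take some of their reads.

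Of 37 proteasome genes 31 were lower, with a median of -0.82, and 2, Psmd5 and Psmd10, which are assembly chaperones, higher. Psmd2 of the regulatory particle had 0.797%, 1.46% and 1.60%. Of 32 lysosomal genes 26 were lower and none higher, with a median of -1.16. Ctsa, cathepsin A, had 0.442%, 0.994% and 1.32% and Psap, the precursor of the saposins, 0.861%, 1.63% and 2.21%.

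Of 29 tested genes that mark macrophages 16 were lower (background 30.3%) and 6 higher, with a median of -0.81. Of all tested genes with 1000 to 10000 mean reads 56.8% were lower. When 1 library was left out, 13 to 16 of the macrophage genes were lower. Lyz2, lysozyme, is among the most translated mRNAs of the line, with a mean of 122653 footprint reads, and had 0.698%, 1.01% and 1.14% converted reads against 0.258% without label (log2 -2.07, SE 0.08, adjusted p = 4.06e-12). Itgb2, the common integrin chain CD18, had 0.619%, 1.03% and 1.50%. The actin-capping protein Capg had 0.677%, 0.959% and 1.22% and Actb 1.51%, 2.37% and 3.05%, within a list of 33 actin and tubulin genes of which 22 were lower and 7 higher.

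Leaving out the libraries in turn, among them the 60 min library with its higher T content, gave 26 to 27 of 27 higher immediate-early genes, 13 of 13 mitochondrial mRNAs and 51 to 54 of 54 histones. It gave 55 to 69 of 76 lower oxidative phosphorylation genes and 54 to 63 of 74 lower ribosomal protein genes. Over the scalings tried, the medians ran from 3.60 to 3.93 for immediate-early genes and from -0.72 to -0.44 for ribosomal proteins, whereas that of the interferon list changed sign.

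**Figure D2:**
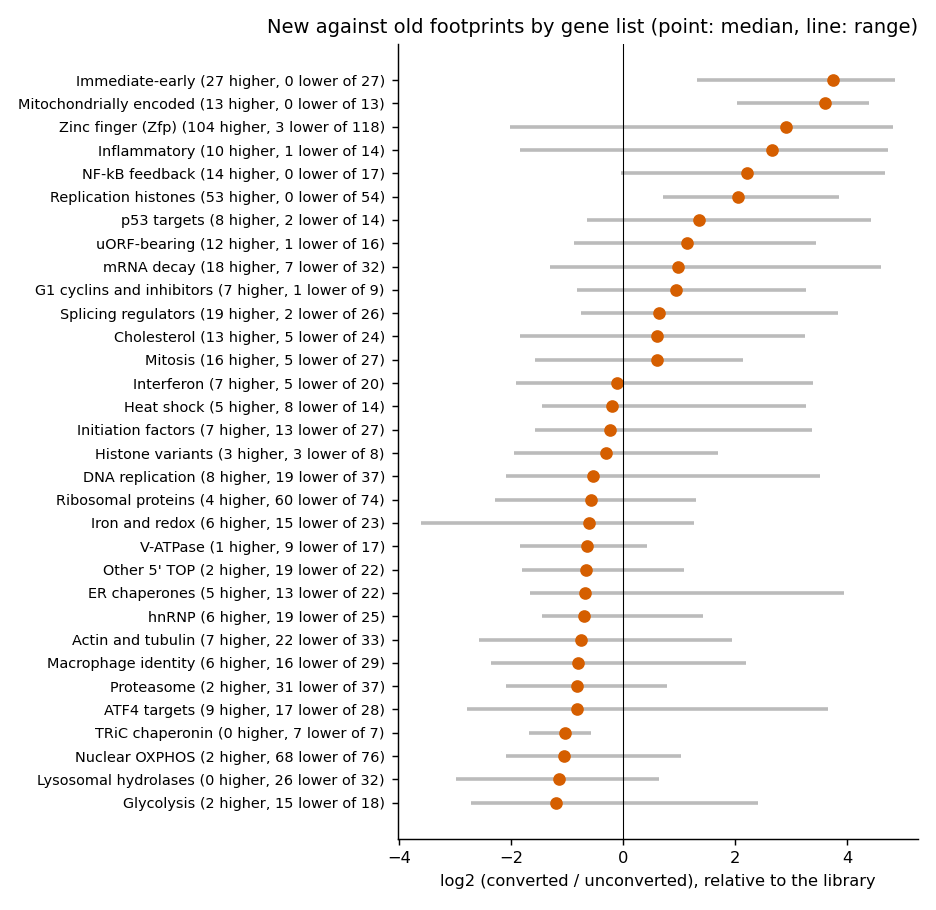
Median (point) and range (line) of the log2 converted to unconverted ratio relative to the library for gene lists with at least 7 tested genes, ordered by median; lines leave out genes with no converted read. Medians run from 3.75 for immediate-early genes to -1.21 for glycolysis.

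The question of what the new footprint pool consists of was then addressed by counting each list's share of all converted and of all unconverted reads. T positions were not taken into account in these shares. Their median per read was 8.87 for mitochondrially encoded genes and 6.67 over all genes, so the mitochondrial part of the converted pool is favoured. Mitochondrially encoded mRNAs made up 6.06% ± 1.44 (SD, n = 3) of converted footprints and 0.949% ± 0.235 of unconverted ones. Their part of the converted pool was 4.46% at 60 min, 6.47% at 90 min and 7.25% at 120 min. Their part of the unconverted pool was 0.690%, 1.01% and 1.15%, so that both pools held more at the later times. Replication histones made up less of both pools at the later times, with 6.89%, 5.58% and 4.88% of converted and 1.59%, 1.39% and 1.16% of unconverted reads, a mean of 5.78% ± 1.02 (SD, n = 3), against 1.38% ± 0.215 of unconverted reads. Since each time is 1 library, a trend with time and a difference between libraries cannot be told apart.

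Ribosomal proteins held 6.77% ± 0.105 (SD, n = 3) of new and 10.2% ± 0.755 of old footprints. In the new pool their order against mitochondrial mRNAs depended on the count used: with at least 2 conversions the means were 6.34% and 7.04%, and above background 6.49% and 6.48%. The immediate-early genes, for all their enrichment, made up 0.512% ± 0.214 (SD, n = 3) of converted reads against 0.0419% ± 0.0152 of unconverted ones. Heat-shock genes held 2.52% of the converted and 1.83% of the unconverted reads although their median log2 ratio was -0.19. Hspa8, the constitutive Hsc70 chaperone, had 6.90%, 11.7% and 18.8% converted reads and alone held 1.37% of the converted and 0.401% of the unconverted pool.

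With T positions again not taken into account, 10 genes gave the most converted reads above background. They were mt-Co1, Hspa8, mt-Co2, Eef1a1, mt-Cytb, mt-Atp6, mt-Co3, Hspa5, mt-Nd5 and Actb. Eef1a1, the elongation factor that delivers tRNA, and Actb stand among them although both were lower than the pool: Eef1a1 held 1.16% of the converted and 1.93% of the unconverted reads, with a log2 ratio of -0.68 (SE 0.06). mt-Co1 held 1.42% of converted and 0.336% of unconverted reads. Hspa5, the endoplasmic reticulum chaperone BiP, held 0.563% and 0.327%. Of new reads 50% lay in 486 genes and of old reads in 393, whereas the top 10 genes of each pool held 8.46% of new and 8.05% of old reads. The 100 most abundant genes of either pool had 54 in common.

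**Figure D3:**
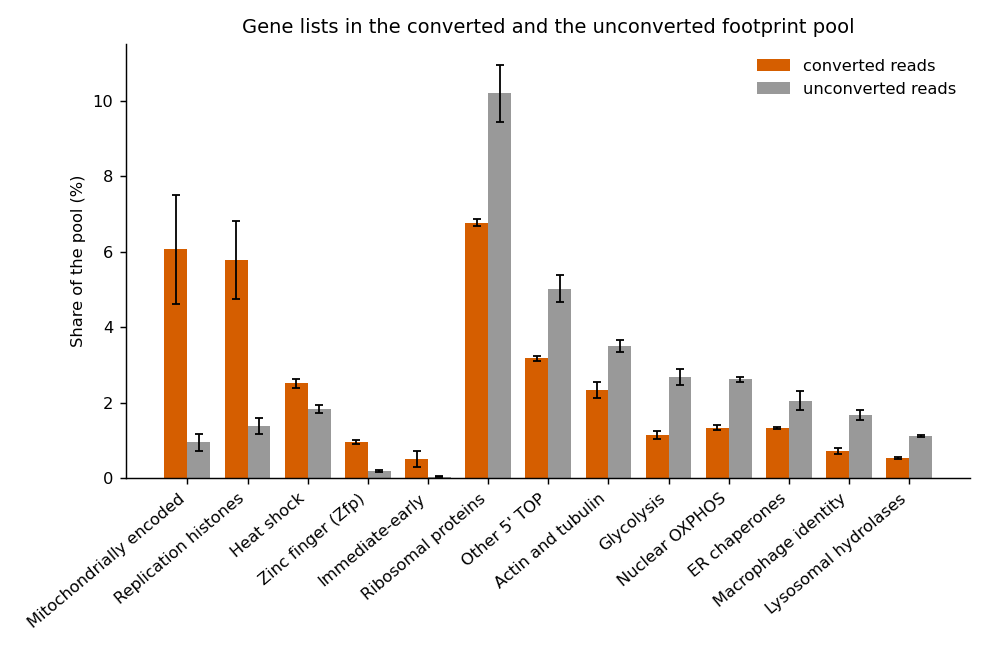
Share of all converted (new) and all unconverted (old) footprint reads held by 13 gene lists, in percent; bars are means and error bars SD over the 60, 90 and 120 min libraries (n = 3). Mitochondrially encoded mRNAs and replication histones hold 6.06% and 5.78% of converted reads but 0.949% and 1.38% of unconverted ones. T positions per read are not taken into account.

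The time course within the footprints differed between groups that all stood above the pool. With the reads of a list summed and the unlabelled share subtracted, the immediate-early genes reached 23.5% at 60 min, 32.2% at 90 min and 40.6% at 120 min. Their 60 min share was therefore 57.8% of that at 120 min, beside 40.6% over all genes tested. For NF-kB genes the same proportion was 57.1%, for mitochondrial mRNAs 50.8% and for histones 48.6%. It was lower for splicing regulators (31.1%), for G1 cyclins (31.0%), for cholesterol genes (34.3%) and for mitotic genes (35.6%). These lists reached 8.15% to 13.6% at 120 min. Taken gene by gene, where converted reads were ample, the median proportion was 33.1% for genes with 5% to 10% converted at 120 min. It was 27.4% from 10% to 20%, 28.0% from 20% to 40% and 41.6% above. The low proportions are therefore not particular to these lists. These proportions rest on 1 library at each time and were not tested.

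**Figure D4:**
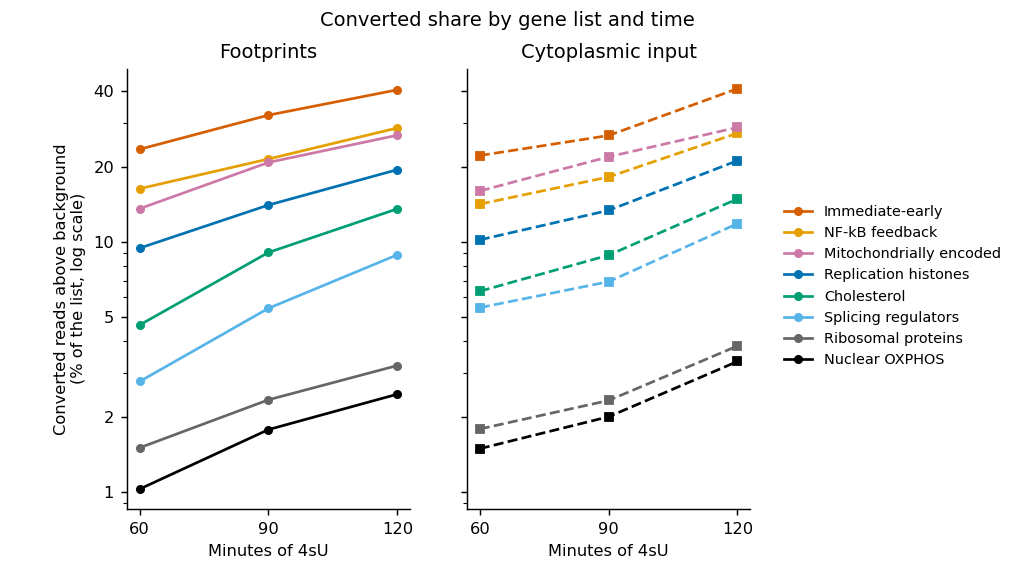
Converted reads above the unlabelled level (percent of a list's reads, log axis) against minutes of 4sU in footprints (left) and cytoplasmic input (right) for 8 gene lists, each point 1 library. Immediate-early genes go from 23.5% to 40.6% in footprints, and nuclear-encoded oxidative phosphorylation genes from 1.03% to 2.46%.

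Gene structure ran along with the new share, as a description across genes, which are not independent replicates. Mitochondrial and histone genes were left out of this description. Genes with 1 exon in their longest coding transcript had a median log2 ratio of 2.57 (97 genes) and those with 2 exons 2.42 (256 genes). The median was 0.63 for 3 to 5 exons, 0.18 for 6 to 10, -0.21 for 11 to 20 and -0.72 for more than 20 (1234 genes). Across 8248 genes Spearman's rho was -0.36 with exon number, -0.09 with the length of the gene and -0.42 with the mean number of footprint reads.

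Abundance itself therefore moved with the ratio, from a median of 1.25 at 50 to 100 mean reads to -0.78 above 10000. The order by exon number was also present among genes of like abundance. Between 1000 and 10000 reads the median was 0.62 for 1 or 2 exons (54 genes), -0.40 for 3 to 10, -0.74 for 11 to 20 and -1.14 for more. Among 1234 genes with more than 20 exons 13.5% were higher and 49.3% lower, while among the 97 with a single exon 89.7% were higher and none lower. The input RNA of the same lysates had the same order, from 2.14 for 1 exon to -0.37 for more than 20.

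The last question was where the new share in footprints departed from that in the cytoplasmic RNA of the same lysates, each relative to its own library. Few genes passed this test: of 7967 genes tested, 62 were higher in footprints (0.778%) and 42 lower (0.527%). The lower genes were mostly long ones. Of 225 tested genes with more than 6000 coding bases 18 were lower and none higher, and of 359 with 4000 to 6000 bases 9 were lower and 1 higher. In contrast, of 615 genes under 500 bases none was lower and 9 were higher. The counts depend on the 90 min lysate: 4 higher and 1 lower genes passed without it, and limma on paired differences called none, with 1164 genes at an unadjusted p under 0.05 against 986 in edgeR. With TMM scaling 48 were higher and 83 lower, so that 36.6% in place of 59.6% of the called genes were higher.

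The median over genes of the log2 footprint over input value was lower in the longer classes of coding length, beside 0.15 over all genes tested. It was 0.25 under 500 bases, 0.28 from 500 to 1000, 0.18 to 2000, -0.01 to 4000, -0.19 to 6000 and -0.36 above. For the longest class it was -0.49 in the 60 min lysate, -0.37 at 90 min and -0.42 at 120 min, and for the shortest class 0.24, 0.28 and 0.20. The lysates thus gave the same order at both ends of the length range. With T positions taken into account the ends were 0.24 and -0.35, and with TMM scaling 0.18 and -0.43.

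**Figure D5:**
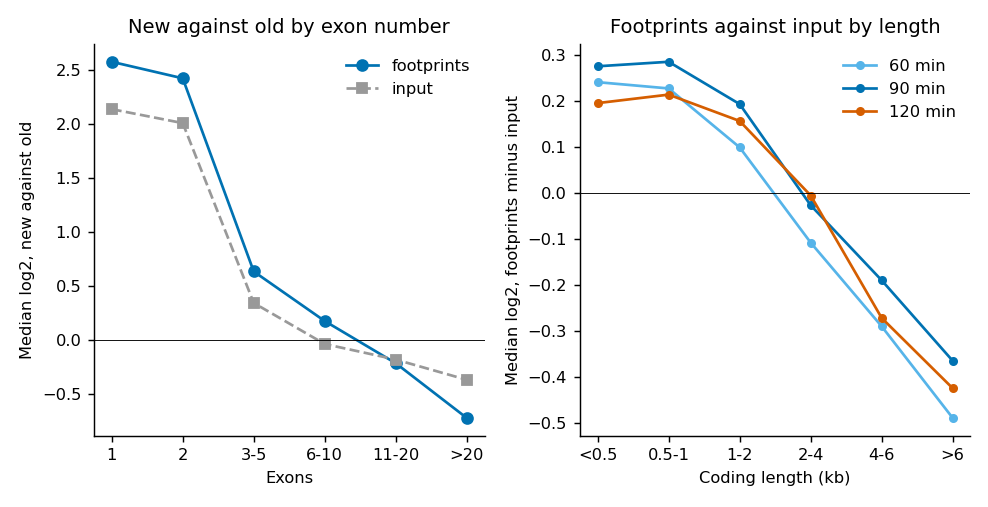
Left: median log2 converted to unconverted ratio relative to the library by number of exons, in footprints and input. Right: median log2 of footprints over input by coding length, 1 line per lysate; it goes from 0.24, 0.28 and 0.20 under 500 bases to -0.49, -0.37 and -0.42 above 6000.

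Vps13a and Vps13c, bridge-like lipid transfer proteins, were the lowest. Vps13a, with 9498 coding bases, had 0.296%, 0.390% and 0.784% converted footprints at 60, 90 and 120 min, against 2.02%, 2.61% and 4.94% in input (log2 -2.17, SE 0.31, adjusted p = 0.00164). Vps13c, with 11244, had 0.283%, 0.659% and 0.916% against 2.36%, 2.97% and 5.07% (log2 -1.97, SE 0.17). Their footprints after 60 min of label thus were at the unlabelled level of 0.387% and 0.364%, while their cytoplasmic mRNA was already marked. Mdn1, a giant ATPase of ribosome assembly with 16767 coding bases, had 0.933%, 0.689% and 1.18% against 2.01%, 4.77% and 9.14%. Iqgap1, a scaffold of the actin cortex, and Nemf, a factor of ribosome rescue with 3192 coding bases, had log2 values of -1.75 and -1.81.

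The lists of translation differed in this comparison. Pabpc1, the cytoplasmic poly(A)-binding protein, had 4.87%, 7.98% and 11.5% converted footprints against 1.67%, 2.02% and 4.06% in input (log2 2.33, SE 0.14). Of 73 tested ribosomal protein genes 17 were higher and 1 lower in footprints (background 0.778% and 0.527%). Of 21 other oligopyrimidine mRNAs 5 were higher and none lower, whereas of 27 initiation factors none was higher and 1 lower. These counts share the limits given above: limma called no gene, and 4 higher and 1 lower genes passed without the 90 min lysate. Rpsa had 4.04%, 5.20% and 7.17% against 1.70%, 2.21% and 3.28%, but 9 pseudogenes carry its name and their reads cannot be told apart here. Replication histones were higher in 7 of 52 cases (background 0.778%). Ucp2, a mitochondrial carrier, had 2.25%, 6.82% and 8.35% against 1.59%, 1.84% and 3.65%, and the transcriptional regulators Tcf20 and Zfp644 had log2 values of 1.87 and 1.62.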

How the data were processed

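The authors deposited raw read counts for each gene, 1 file a library, in columns that combine T positions per read with T-to-C conversions. That reading of the columns was inferred from their names and values. Bowtie 0.12.8 and the build mm10 are named per the submitters' processing notes; counting, annotation and mismatch settings: not given in the sources used here. Fragments of 25 to 35 nt from monosomes (footprints) or from alkali-fragmented RNA (input) were sequenced after rRNA depletion and oxidative conversion, per the labels' protocols. The spike-in was not used. Reads without molecular identifiers are not independent molecules, so Wilson intervals cover counting error only.

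For each of the 3 labelled footprint libraries, converted (1 or more conversions) and unconverted reads entered edgeR 4.0.16 as a pair of columns, each scaled by its own total, with a term for library and 1 for conversion (quasi-likelihood, two-sided, Benjamini-Hochberg). No background was subtracted; the 0 min library is given beside the values. Footprints against input added the interaction with material over 6 libraries. On simulated counts for 8636 genes the first fit recovered 45 of 50 genes at a log2 of -2, 49 of 50 at 2, 28 of 50 at -1 and 29 of 50 at 1, and called 15 of 8436 unchanged genes. For 7967 genes the second recovered 36, 43, 5 and 9 of 50, and called 1 of 7767. The simulation gave all genes the same dispersion, no background of their own and no change of their relative ratio with time. It also kept most genes at the library-wide share, whereas in the data most genes departed from it. Recovery and false calls therefore describe the simulated setting only. Symbols were matched to GENCODE M21 (11965 of 12709).

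Named genes are the 12 highest and 12 lowest called genes (same direction in 3 libraries, mean of at least 100 reads, under 1% converted without label), up to 3 members per list with the smallest p, 10 top contributors and 5 genes at each end of footprints against input; not all that qualify are described. The libraries, the 35 lists and these rules were chosen with earlier results of these data known. Exceptions within a list, the single mitochondrial genes and Hist1h2bl were named, and the exon, coding-length, motif and time descriptions chosen, after values were seen. Alternatives were DESeq2 1.42.0, limma 3.58.1, TMM and size-factor scaling, filters, backgrounds, T positions, at least 2 conversions, leaving out mitochondrial and histone genes, no library term, and leaving out each library.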

Additional observations from a re-analysis of the deposited data

Results flagged for a closer look

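In the 10 genes named here, 5 at each end, the relative new share differed between the 2 materials of the same lysates past the test of the interaction of conversion with material (edgeR, adjusted p under 0.05), with the same direction in all 3 lysates. Higher in footprints were Pabpc1 with a log2 difference of 2.33, Ucp2 with 1.88, Tcf20 with 1.87, Rpsa with 1.81 and Zfp644 with 1.62. The values by lysate (60, 90 and 120 min) were 2.30, 2.47 and 2.20 for Pabpc1 and 1.15, 1.23 and 2.27 for Tcf20, so that the lysates differed for Tcf20 more than for Pabpc1. Lower in footprints were Vps13a with -2.17, Vps13c with -1.97, Mdn1 with -1.90, Nemf with -1.81 and Iqgap1 with -1.75. Mdn1 was at -0.40 in the 60 min lysate and at -2.43 and -2.49 in the others.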

How the results depend on the processing

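New against old: a mean of at least 200 reads gave 1902 higher and 2462 lower genes. TMM gave 2912 and 3163 and DESeq2 size factors 2972 and 3063, so that lower genes were the majority in these settings. A contrast of the labelled libraries with the 1 unlabelled library, which asks another question, gave 797 higher and 712 lower genes. Of these 80 had the opposite direction. Without the library term (no replicate block) 2877 genes were higher and 2567 lower. Leaving out 1 library gave 2249 to 3383 higher and 1786 to 2766 lower genes. The median of all genes was 0.04 and moved to -0.12 with TMM, -0.08 with DESeq2 size factors and 0.18 without mitochondrial and histone genes. Against the unlabelled library Hk2 (-0.60) and Trim25 (-1.31) had the opposite sign, as did the medians of histone variants (2.05), heat-shock (0.088) and interferon genes (0.083). The interferon median was also positive with limma and a pseudocount of 2 (0.38), without a filter (1.00) and without mitochondrial and histone genes (0.031), and that of histone variants with T positions taken into account (0.073); the causes were not tested. The fitted values of Hrsp12 (5.87, adjusted p = 0.842) and Ppm1j (4.84, adjusted p = 0.898) against that library are set against 0 converted reads and give no direction. Footprints against input: leaving out 1 lysate gave 4 to 99 higher and 1 to 72 lower genes, TMM 83 lower, and limma with the lysate as replicate block 0 and 0. With 50 to 100 reads a gene's 60 min share rests on few converted reads.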

Other observations

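Of 20 tested interferon-stimulated genes 7 were higher (35.0%) and 5 lower (25.0%) in new footprints, beside 34.9% and 30.3% of all genes tested. Irf9, a subunit of the interferon-activated transcription factor, had 20.0%, 26.1% and 44.4% converted footprints at 60, 90 and 120 min and overlaps Rnf31, whereas B2m, the light chain of class I molecules, had 1.11%, 1.87% and 2.54%. Trim25 had 8.46%, 11.9% and 16.9% but also 2.50% without label. Of 27 initiation factors 7 were higher and 13 lower: the helicase Eif4a2, which overlaps Rfc4, had 19.4%, 30.0% and 39.5%, against 1.19%, 2.05% and 2.94% for Eif3b. Of 28 ATF4 targets 9 were higher, among them the amino acid transporters Slc3a2 with 12.2%, 18.5% and 27.1% and Slc38a2 with 9.38%, 21.4% and 32.6%, and 17 were lower. Of 23 iron and redox genes 15 were lower and 6 higher, with the superoxide dismutase Sod1 at 1.02%, 1.41% and 1.78%. Of 17 subunits of the vacuolar ATPase 9 were lower and 1 higher.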
